A study of Mus musculus with 2 samples.

Results

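Resident dermal macrophages made up 910 of 18965 retained cell barcodes in single-cell RNA sequencing of mouse dorsal skin. Members were chosen by their own measured counts: a barcode was a member when it held a count of at least 2 of the 5 genes Cd209f, Cd209g, Folr2, Pf4 and F13a1, and at least 2 counts summed over C1qa, C1qb, C1qc and Mrc1. Barcodes with any count of Cd207, a Langerhans cell gene, or of Cd3e or Cd3g, which are T cell genes, were left out, as were barcodes with fewer than 200 detected genes or more than 20% mitochondrial counts. The skin came from C57BL/6 mice aged 7 weeks and gave 2 libraries. In the first the mice had received imiquimod, a TLR7 agonist used to provoke psoriasis-like skin inflammation, and in the second they had received imiquimod together with Shi-Bi-Man, a natural product. Imiquimod was common to both groups, so the comparison is between inflamed skin with and without Shi-Bi-Man, and untreated skin was not analysed here. The labels name no transgene and do not say how many mice went into a library. With 1 library per group no spread between samples could be measured: no test was made, and every 95% interval below covers counting error only.

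Macrophages of the dermis sit along vessels and collagen bundles, where they take up debris and pathogens through lectins and scavenger receptors such as CD206 (Mrc1), CD163 and the CD209 family. They secrete complement C1q and chemokines that draw in leukocytes, and part of them carries the hyaluronan receptor LYVE1. Imiquimod acts on TLR7, a receptor for single-stranded RNA that leads to cytokine and type I interferon production.

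The members numbered 558 of 11019 retained barcodes (5.06%, 95% Clopper-Pearson interval 4.66 to 5.49) with imiquimod and 352 of 7946 (4.43%, 3.99 to 4.91) with Shi-Bi-Man plus imiquimod. The log2 ratio of the shares was -0.19 (-0.38 to -0.0051, by a normal approximation). Among all barcodes with at least 2 counts of C1q and Mrc1 and none of Cd207, Cd3e or Cd3g, the members were 47.9% of 1166 and 49.5% of 711, a log2 ratio of 0.05 (-0.09 to 0.19). The remaining 608 and 359 of those barcodes had at most 1 of the 5 markers and are called the other C1q macrophages below, after the genes of their rule. The name does not establish their cell type. A C1qa count was found in 52.8% and 50.7% of them, and a Csf1r count in 36.7% and 24.0%. Mmrn1, Dct and Krt10 were among the genes that stood highest in them against the members. Whether the set holds cells other than macrophages was not tested. Shares of all barcodes also move with the other cells: barcodes with at least 2 counts of Cd207 were 4.64% of the imiquimod library and 0.931% of the other. Fewer cells in the skin and fewer captured cells cannot be told apart.

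Depth was close in both groups. The members held a median of 1454 counts and 807.5 genes with imiquimod, and 1343 counts and 757 genes with Shi-Bi-Man, and their summed counts were 952318 and 559455. The whole libraries held 28920316 counts over 11316 barcodes and 20837259 counts over 8054. Of 49 barcode sequences present in both libraries, 1 belonged to a member with imiquimod and 0 to a member with Shi-Bi-Man. RNA of other cell types was measurable in the members and moved between the libraries. The 10 fibroblast markers summed to 3182 CPM (counts per 1000000 of the members' summed counts) with imiquimod alone and 8026 CPM with Shi-Bi-Man, against 13229 and 28318 CPM in all other barcodes, and none was at 0. The 12 keratinocyte markers stood at 5255 and 7377 CPM, the 8 sebocyte markers at 1955 and 1037 CPM, and the 12 neutrophil markers at 516 and 87.6 CPM with 6 and 8 of them at 0. Of 15 such lists, 12 moved in the members in the direction of the other barcodes. Their part in the ratios below was not tested, but the between-library ratios of the named genes and list medians were recomputed over the 424 and 141 members with at most 2 counts of Col1a1, Col1a2, Col3a1 and Dcn, called low-collagen members here.

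Macrophage genes that took no part in the rule were present in both groups, and the level in all other barcodes is given here for Cd163 only. Cd163, the haemoglobin scavenger receptor, stood at 749.8 CPM with imiquimod alone and 908 CPM with Shi-Bi-Man, against 6.74 and 6.54 CPM in all other barcodes. Csf1r, the receptor for macrophage colony-stimulating factor, stood at 732 and 862 CPM, and Adgre1, which encodes F4/80, at 864 and 812 CPM. Maf, a transcription factor of tissue macrophages, stood at 1493 and 1505 CPM, and Timd4, a phosphatidylserine receptor of long-lived macrophages, at 139 and 71.5 CPM (132 and 40 counts). The share of members with a count of Cd163 was 43.0% and 46.3%, and of Timd4 15.6% and 7.39%. A Csf1r count was found in 58.2% and 59.7% of members and in 36.7% and 24.0% of the other C1q macrophages. For Adgre1 the shares were 62.0% and 55.7% of members, and 41.9% and 32.3% of the other C1q macrophages.

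The 5 markers that chose the members were not equally filled, which is given as a description only. With imiquimod 213 of 558 members (38.2%) carried all 5 and 128 (22.9%) carried only 2, and with Shi-Bi-Man 75 of 352 (21.3%) carried all 5 and 114 (32.4%) only 2. Cd209f stood at 2922 and 1714 CPM, Cd209g at 1282 and 822 CPM and Folr2, a folate receptor, at 1029 and 727 CPM. Pf4, the chemokine platelet factor 4, stood at 2303 and 2175 CPM, and F13a1, the coagulation factor XIII subunit, at 2745 and 2635 CPM. The lectins and Folr2 were thus lower with Shi-Bi-Man and the last 2 were nearly level. In the low-collagen members the log2 ratio of Cd209f was -0.22 in place of -0.77, that of Cd209g -0.14 in place of -0.64 and that of Folr2 -0.23 in place of -0.50. At the edge of the rule, members with exactly 2 markers had Cd163 at 208 CPM with imiquimod alone and 439.5 CPM with Shi-Bi-Man, and barcodes just outside it, with 1 marker, had 37.2 CPM (224 barcodes) and 71.1 CPM (151 barcodes).

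**Figure D1:**
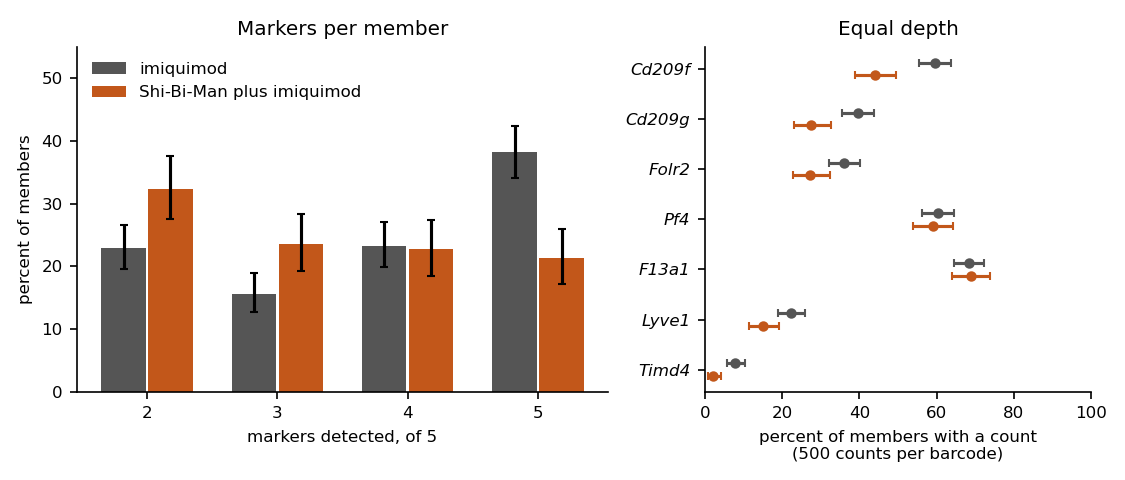
Left, percent of the members of each library (vertical axis) that carried 2, 3, 4 or 5 of the 5 markers (horizontal axis); right, percent of members with a count of each named gene after every barcode was thinned to 500 counts. Bars and points are 1 library each and error bars are 95% Clopper-Pearson intervals; with imiquimod alone 38.2% of members carried all 5 markers and with Shi-Bi-Man 21.3% did.

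Between the libraries, Ccl8, Ccl12, Cd209a, Cd209d, Gbp2, Iigp1 and Tgtp2 of the members stood higher with Shi-Bi-Man, and Cxcl13, Retnla, Fcna and Cfp lower. Over 8096 genes with at least 20 counts in the members, 1161 (14.3%) were at least 1.5-fold higher with Shi-Bi-Man and 980 (12.1%) at least 1.5-fold lower, with a median log2 ratio of 0.03. These shares are the background for the counts of listed genes that follow. A log2 ratio below is Shi-Bi-Man plus imiquimod over imiquimod, with 0.5 added to each summed count.

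Ccl8, a CC chemokine that binds several receptors on monocytes and T cells, had the most counts among the named genes past 1.5-fold higher. It stood at 4673 CPM (4450 counts) with imiquimod alone and 14865 CPM (8316 counts) with Shi-Bi-Man, a log2 ratio of 1.67 (1.62 to 1.72). At an equal 500 counts per barcode, 44.1% of members had a Ccl8 count with imiquimod and 70.5% with Shi-Bi-Man (55.4% and 79.0% before thinning), against 11.7% and 16.6% of the barcodes of a fibroblast gate whose median depth was 1961 and 2148 counts. The 10% of members with the most Ccl8 held 69.6% of its counts in the imiquimod library and 52.5% with Shi-Bi-Man, so the counts were spread over more of the members in the second library. Ccl8 was also 1.67 in the low-collagen members. In the other C1q macrophages Ccl8 stood at 171 and 575 CPM, which is 1.75 on the log2 scale.

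Ccl8 lies on chromosome 11 (GRCm38, 82115185 to 82116799, plus strand) in a run of CC chemokine genes, and its neighbours did not all follow it. Ccl12, a monocyte chemoattractant, stood at 359 CPM with imiquimod alone and 756 CPM with Shi-Bi-Man, a log2 ratio of 1.07 (0.87 to 1.28). Ccl7 stood at 2765 and 2667 CPM (log2 ratio -0.05, -0.14 to 0.04), and Ccl2 at 1420 and 1121 CPM (log2 ratio -0.34, -0.48 to -0.20). Ccl11 had 19 and 35 counts. In the other C1q macrophages Ccl12 went the other way, at -0.52.

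Of 19 chemokines measured, 4 were at least 1.5-fold higher and 6 at least 1.5-fold lower, with a median of -0.28. Ccl4, a CC chemokine, stood at 982 and 459 CPM (-1.09, -1.30 to -0.90), and Cxcl2, which attracts neutrophils, at 1262 and 589.9 CPM (-1.10, -1.28 to -0.92), with -0.48 for Cxcl2 when 1 marker sufficed for membership. Cxcl13, which attracts B cells, lay lowest of the list. It had 741 counts (778 CPM) in the members with imiquimod alone and 31 counts (55.4 CPM) with Shi-Bi-Man, a log2 ratio of -3.79 (-4.38 to -3.29). These counts came from few barcodes: the 10% of members with the most held 89.5% of them with imiquimod, and a single barcode held 38.7% with Shi-Bi-Man. At equal depth 13.4% of members had a Cxcl13 count with imiquimod and 1.42% with Shi-Bi-Man, while the fibroblast gate had 6.78% and 2.14%, so the second value is not above that of cells of another type. Cxcl16, which the study's title names, stood at 83.0 and 67.9 CPM in the members, a log2 ratio of -0.28 with an interval that spans 0 (-0.89 to 0.29), and stood higher, at 152 CPM, in the other barcodes of the imiquimod library. Of the IL-23 cytokine, which the title also names, Il23a had 1 count with imiquimod and 0 with Shi-Bi-Man. Il12b had 0 counts in both, where 3 counts would be 3.15 and 5.36 CPM.

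**Figure D2:**
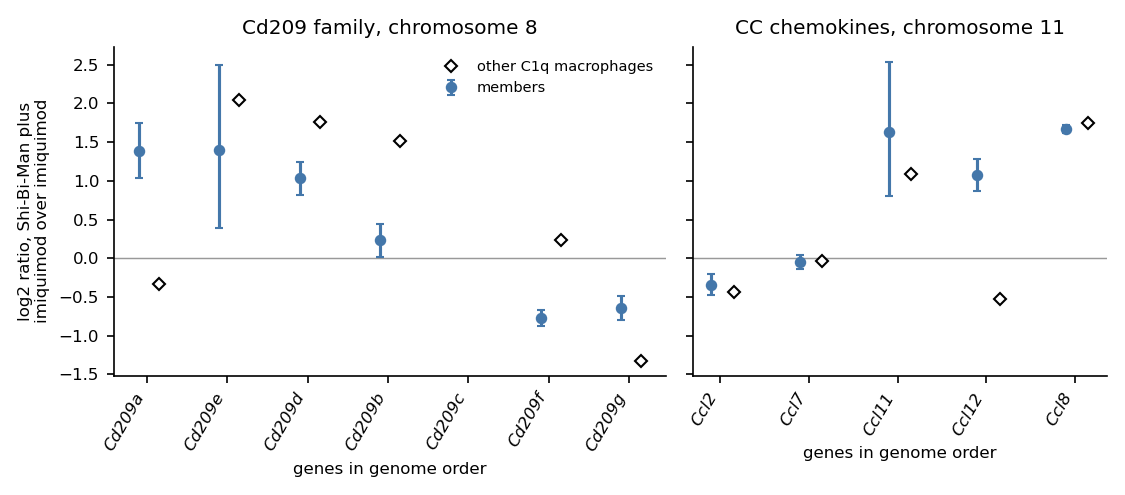
Log2 ratio (vertical axis, Shi-Bi-Man plus imiquimod over imiquimod) of the Cd209 genes and of a run of CC chemokine genes, in genome order (horizontal axis). Circles are resident dermal macrophages with 95% counting intervals, and diamonds the other C1q macrophages; genes with under 20 counts in the members have no point. In the members Cd209a, Cd209e and Cd209d lie above 0 and Cd209f and Cd209g below it.

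The Cd209 genes are C-type lectins in a cluster on chromosome 8, and within the members they went in both directions. Cd209a, a relative of human DC-SIGN that dendritic cells also express, stood at 116 CPM with imiquimod alone and 302 CPM with Shi-Bi-Man (log2 ratio 1.38, 1.03 to 1.75), and Cd209d at 356 and 729 CPM (1.03, 0.82 to 1.25). Cd209b stood at 486 and 570 CPM (0.23, 0.02 to 0.44), with -0.40 in the low-collagen members. The 11 dendritic cell markers other than Cd209a summed to 341 and 359 CPM in the members. Cd209e had 14 and 22 counts, and Cd209c 3 and 1. At equal depth a Cd209d count was found in 13.6% and 25.3% of members and in 0.053% and 0.12% of the fibroblast gate. The ratio of Cd209d was 1.48 among members with 2 or 3 markers and 1.25 among those with 4 or 5. These genes are close copies of each other, and how reads shared between them were assigned is not given in the sources used here. Of all 24 lectins and scavenger receptors measured, 3 were higher and 6 lower at 1.5-fold.

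Genes of the interferon response stood higher as a list, with 14 of 37 measured genes at least 1.5-fold higher, 4 lower and a median log2 ratio of 0.36. The list ranged from -1.91 to 1.83. Gbp2, a guanylate-binding protein that acts on pathogen vacuoles, stood at 70.4 CPM (67 counts) with imiquimod alone and 250.2 CPM (140 counts) with Shi-Bi-Man, a log2 ratio of 1.83 (1.40 to 2.27). Iigp1, an immunity-related GTPase, stood at 141 and 386 CPM (1.45, 1.14 to 1.78), and Tgtp2, a T-cell-specific GTPase in name, at 33.6 and 102 CPM (1.59, 0.95 to 2.27). Gbp7 stood at 145 and 261 CPM (0.85, 0.50 to 1.20). After these values were seen, the genes were divided by family. The 7 measured guanylate-binding and immunity-related GTPases of the list (Gbp2, Gbp3, Gbp5, Gbp7, Irgm1, Iigp1 and Tgtp2) were past 1.5-fold, except that Gbp3 gave -0.07 and Gbp5 0.11 when barcodes were thinned to 500 counts before the rule, and Gbp3 0.53 in the low-collagen members. Of all 11 measured GTPases of these families, listed or not, 9 were past 1.5-fold higher and 0 lower. The other 2 were Gbp8, with 28 and 19 counts and a ratio of 0.22 (-0.71 to 1.10), and Gvin1, with 18 and 14 counts and a ratio of 0.42 (-0.71 to 1.49). Of the list's 16 measured genes of the Ifit, Oas, Mx, Isg, Ifi and Rsad kinds, 3 were higher, 3 were lower and the median was 0.11. Among them Ifit1, an inhibitor of viral RNA translation, stood at 76.7 and 19.7 CPM (73 and 11 counts), which is -1.91 on the log2 scale (-3.03 to -1.04), and Isg15, a ubiquitin-like protein, at 79.8 and 82.2 CPM (0.05, -0.52 to 0.59). Unlike the GTPases, genes of these kinds outside the list were not counted. Oasl1 is such a gene, with 261 and 55 counts and a ratio of -1.47 (-1.93 to -1.05). The list's median was 0.70 in the low-collagen members, and 0.75 and 0.37 in members with and without a Lyve1 count. Gbp2 counts were also found outside the members: at equal depth 3.23% and 8.52% of members had one, and 4.03% and 4.74% of the fibroblast gate, so the imiquimod value is not above that of another cell type. In the other C1q macrophages the list was higher too, with 12 of 32 measured genes at least 1.5-fold higher, 3 lower and a median of 0.30. Over all 7841 genes tested there, 940 were higher and 940 lower. The Gbp2 ratio in that set was 0.58, with 0.12 for Gbp7, -0.10 for Gbp5 and -0.56 for Gbp3. Gbp8 was at 0.89 and Gbp2b at 3.07 there.

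Promoters of 4 GTPase genes that stood higher are shown beside that of Ccl8. RefSeq promoter windows (GRCm38.p6) were available for 29 of the 37 measured interferon genes, and the 250 bases before the start were searched on both strands for GAAA, any 2 bases and GAAA, the core of the interferon-stimulated response element bound by ISGF3 and IRF proteins, and for TTC, any 3 bases and GAA, the gamma-activated site. Capitals mark matches on either strand, each window is read on the gene's strand, and matches that run into each other are capitals throughout.
Gbp2, chr3:142620594-142620623, plus strand: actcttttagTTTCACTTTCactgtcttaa
Tgtp2, chr11:49064263-49064303, minus strand: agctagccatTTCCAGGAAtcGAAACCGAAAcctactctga
Gbp3, chr3:142559989-142560024, plus strand: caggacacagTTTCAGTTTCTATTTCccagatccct
Gbp7, chr3:142530220-142530302, plus strand: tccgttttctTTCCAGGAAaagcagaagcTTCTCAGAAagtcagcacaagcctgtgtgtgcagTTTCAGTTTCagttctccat
Ccl8, chr11:82115105-82115184, plus strand: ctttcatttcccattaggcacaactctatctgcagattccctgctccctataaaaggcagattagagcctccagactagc
All 4 GTPase windows held the first motif, and the Tgtp2 and Gbp7 windows also held the second. The 250 bases before Ccl8 held neither, and the 80 nearest the start are shown. Across the list 17 of 29 windows (58.6%) held the first motif, against 3.02% of 6287 windows of all tested genes, and 8 of 29 (27.6%) held the second, against 5.74%. Among the 10 genes at least 1.5-fold higher that had a window, 6 held the first motif and 4 the second, and among the other 19 genes 11 and 4 did. A match is a run of letters and not a measured binding site.

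**Figure D3:**
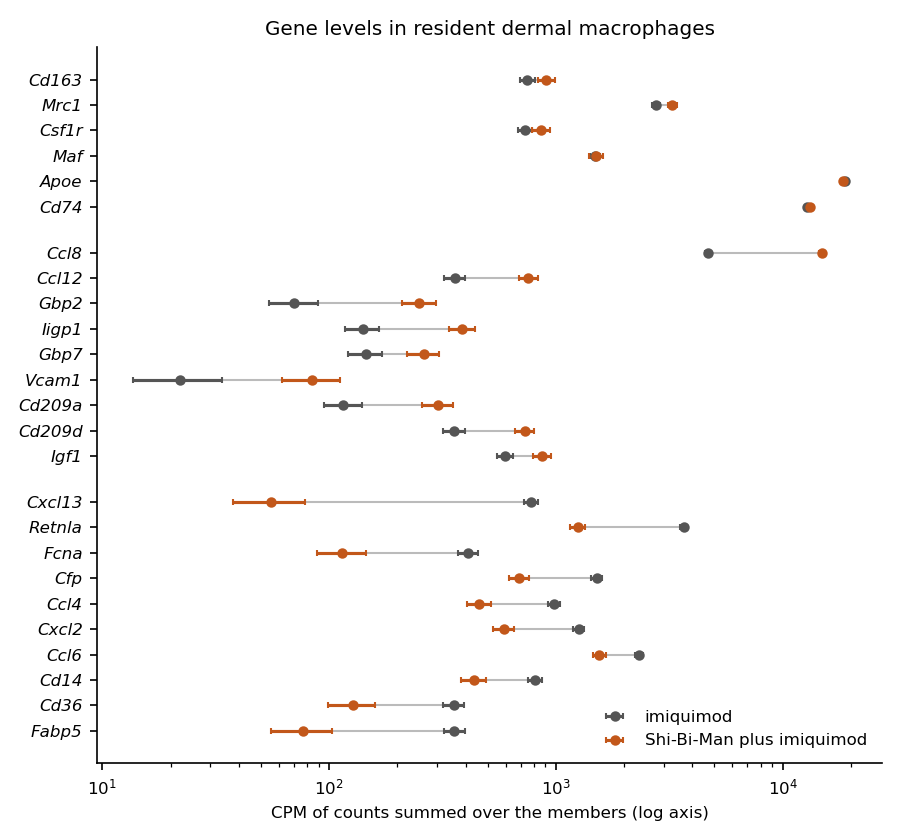
CPM of each gene in the counts summed over the members (horizontal log axis), 1 point per library with 95% Poisson intervals, some narrower than the point. The upper block holds selected macrophage genes with close levels, the middle block genes higher with Shi-Bi-Man, led by Ccl8 at 4673 and 14865 CPM, and the lower block genes lower with it, led by Cxcl13 at 778 and 55.4 CPM.

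Over all members, most antigen presentation genes were level or higher. Of 14 measured class I genes, 4 were at least 1.5-fold higher and 1 lower, with a median of 0.39. H2-T23, a non-classical class I molecule, stood at 228 and 377 CPM (0.73, 0.45 to 1.01), and Tap1, a subunit of the peptide transporter, at 34.7 and 80.4 CPM (1.21, 0.53 to 1.91). Nlrc5, the class I transactivator, had 14 and 27 counts, and H2-Q7 14 and 34. None of 9 measured class II genes was past 1.5-fold in either direction. H2-Ab1 stood at 2636 and 3341 CPM (0.34, 0.25 to 0.43), and Cd74, the invariant chain, at 12760.4 and 13270.1 CPM (0.06, 0.01 to 0.10). Class II transcripts were abundant in all other barcodes of the imiquimod library too, with H2-Ab1 at 2357 CPM there and 635 CPM in the library with Shi-Bi-Man.

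Over all members, genes linked to alternative activation and to complement stood lower where they were past the fold, which did not hold in every subset of the members. Retnla, which encodes the secreted protein RELM-alpha of alternatively activated macrophages, stood at 3661 CPM (3486 counts) with imiquimod alone and 1251 CPM (700 counts) with Shi-Bi-Man, a log2 ratio of -1.55 (-1.67 to -1.43). At equal depth 35.3% of members had a Retnla count with imiquimod and 13.9% with Shi-Bi-Man, against 0.847% and 0.742% of the fibroblast gate. The 10% of members with the most Retnla held 95.6% of its counts with Shi-Bi-Man and 61.6% with imiquimod. The ratio was -0.74 when 1 marker sufficed for membership. Of 15 measured genes of alternative activation and repair, 5 were lower, 0 higher and 10 between, with a median of 0.01. In members with a Lyve1 count 2 of 13 were higher and 0 lower, and in those without 2 of 14 were higher and 4 lower. With 2 or 3 markers 3 of 14 were higher and 4 lower, and with 4 or 5 markers 1 of 13 was higher and 3 lower. Arg1, arginase 1, had 8 and 0 counts.

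Of 12 measured complement genes, 3 were at least 1.5-fold lower and 0 higher, with a median of -0.24. In members with a Lyve1 count 1 of 11 was higher and 0 lower, and in those without 1 of 11 was higher and 2 lower. With 2 or 3 markers 1 of 11 was higher and 0 lower, and with 4 or 5 markers 0 of 11 were higher and 2 lower. In the other C1q macrophages 3 of 11 were lower and 1 higher, with a median of -0.40. Cfp, which encodes properdin, the stabiliser of the alternative pathway convertase, stood at 1513 and 688 CPM (-1.14, -1.30 to -0.97), and -0.54 in the low-collagen members. Fcna, a ficolin that binds microbial sugars and starts the lectin pathway, was counted with the core resident macrophage genes and not in this list. Fcna stood at 412 CPM (392 counts) and 114 CPM (64 counts), which is -1.84 on the log2 scale (-2.25 to -1.46), and was nearly absent from all other barcodes at 3.97 and 0.892 CPM. Cd36, a fatty acid and scavenger receptor, stood at 355 and 127 CPM (-1.48, -1.87 to -1.11), and Cd14, the endotoxin co-receptor, at 811 and 434 CPM (-0.90, -1.11 to -0.69), with -0.32 for Cd14 in the low-collagen members.

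Of 26 measured genes of actin, matrix and adhesion, 8 were higher and 6 lower, and the lowest was Mmp9, a gelatinase, with 88 and 3 counts. Vcam1, an adhesion ligand for integrins of leukocytes, stood at 22.1 CPM (21 counts) and 84.0 CPM (47 counts), which is 1.91 on the log2 scale (1.16 to 2.75). Ccr1, a chemokine receptor of inflammatory monocytes and neutrophils, had 72 and 7 counts, and Il1b 69 and 9 counts. The neutrophil markers in the members moved the same way, from 516 to 87.6 CPM. Of 21 inflammatory cytokines and enzymes, 1 was higher, 3 were lower and the median was -0.20. Tnf stood at 109 and 80.4 CPM (-0.43, -0.98 to 0.08) and Il10, an anti-inflammatory cytokine, at 137 and 114 CPM (-0.25, -0.71 to 0.19). Tlr7 itself stood at 76.7 and 100.1 CPM (0.39, -0.14 to 0.91), and of 14 genes of its pathway 1 was higher and 2 lower. The intervals of Tnf, Il10 and Tlr7 all span 0.

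The other genes at both ends of the ranking were named for their rank, and Plac8 is also on the list of monocyte markers. Among those higher, AW112010 had 32 and 67 counts, Plac8 27 and 50, Car3 34 and 53, and Snx24 30 and 45. Among those lower, Slc13a3, a dicarboxylate transporter, stood at 113 and 32.2 CPM, Agtrap at 89.3 and 28.6 CPM, Lyz1, a lysozyme, at 237 and 78.6 CPM (-1.58, but -0.32 when 1 marker sufficed for membership), Oasl1 at 274 and 98.3 CPM, and Plbd1 at 365 and 138 CPM. Sltm stood at 8684 and 3378 CPM in the members and at 2685 and 2219 CPM in all other barcodes; how reads that map to several places were counted is not given in the sources used here, which limits what the Sltm values mean.

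**Figure D4:**
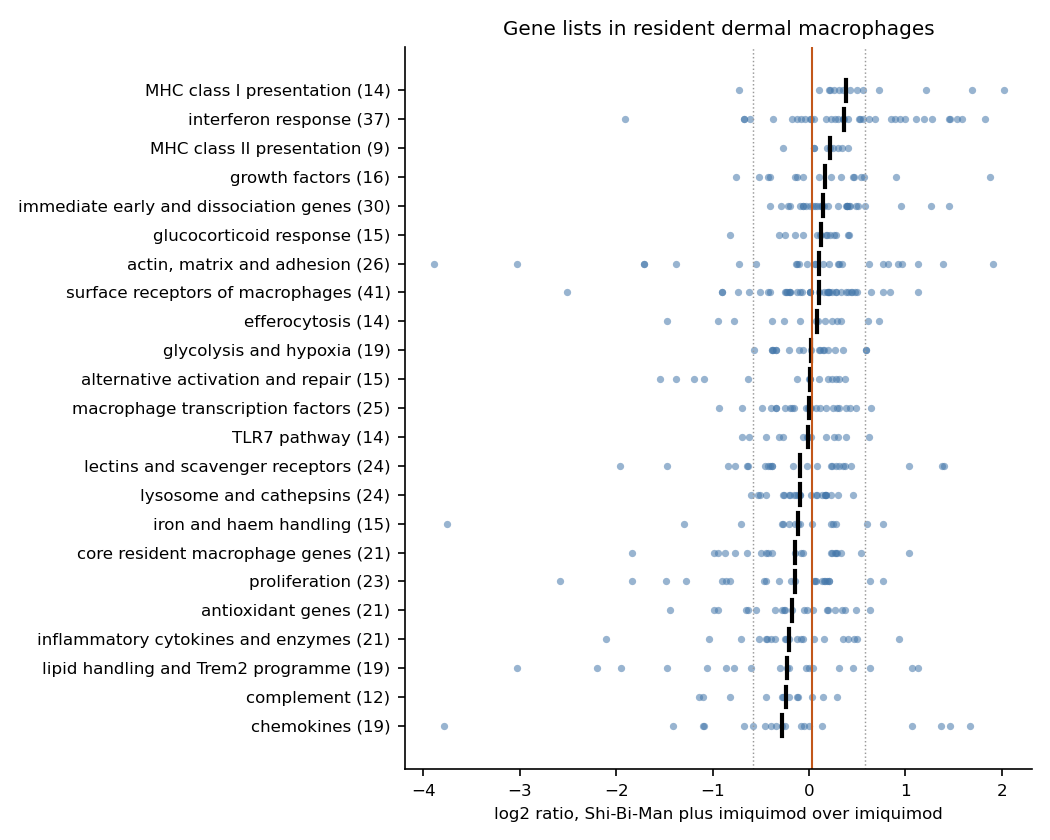
Log2 ratio (horizontal axis, Shi-Bi-Man plus imiquimod over imiquimod) of each measured gene of 23 lists, 1 row per list with the number of genes measured in brackets. Black bars are list medians, the coloured line is the median of all tested genes (0.03) and dotted lines mark 1.5-fold; the class I list lies highest by median (0.39) and the chemokine list lowest (-0.28).

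Of 19 measured genes of lipid handling and the Trem2 programme, 3 were higher and 8 lower, with Cd36 among the lower. None of 24 measured lysosome and cathepsin genes was higher and 1 was lower. Of 25 macrophage transcription factors 1 was higher and 2 lower. Klf2, a quiescence factor, stood at 454 and 708 CPM (0.64, 0.44 to 0.84), and at 0.40 when barcodes were thinned before the rule. Of 16 growth factors 2 were higher and 1 lower. Igf1, a growth factor for keratinocytes and fibroblasts, stood at 599 and 872 CPM (0.54, 0.37 to 0.72), with 0.29 in the low-collagen members and -0.04 when barcodes were thinned before the rule. Of 30 immediate early and dissociation genes, which respond to tissue digestion, 3 were higher and 0 lower. Hspa1b, a heat shock protein, stood at 322 and 774 CPM in the members and at 423 and 786 CPM in all other barcodes. Of 23 proliferation genes, 2 were higher and 7 lower, and Mki67, a marker of dividing cells, had 40 counts in 20 members and 17 counts in 3 members, with 82.4% of the latter in a single barcode.

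Set against the other C1q macrophages, the members had higher levels of C6, Fcna, Cd163 and Ccl8 in both libraries. Since both sets were made by the same marker genes, this is a description. Of 4904 genes with at least 50 counts over both sets in each library, 350 (7.14%) were at least 2-fold higher in the members in both libraries and 332 (6.77%) at least 2-fold lower. Apart from the rule's own genes the highest were C6, a complement component of the membrane attack complex, with log2 ratios of 6.14 and 6.47 and 2.58 and 1.08 CPM in the other C1q macrophages, and Fcna at 6.07 and 5.41. Cd209b stood at 6.47 and 5.18, Cd163 at 5.30 and 5.16, Ednrb, an endothelin receptor, at 5.77 and 4.97, and Ccl8 at 4.77 and 4.69. Pla2g2d, a secreted phospholipase, stood at 4.54 and 4.69, and Cbr2, a carbonyl reductase, at 4.25 and 4.30. Il1b was lower in the members, at -2.15 and -3.37, as was Mmp12, macrophage elastase, at -2.18 and -4.44. Krt10, a keratinocyte gene, was at -2.26 and -2.63 and reached 11462 CPM in the other C1q macrophages with Shi-Bi-Man, so that set also carried epidermal RNA. Retnla was 3.10 higher in the members with imiquimod and 0.51 with Shi-Bi-Man.

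**Figure D5:**
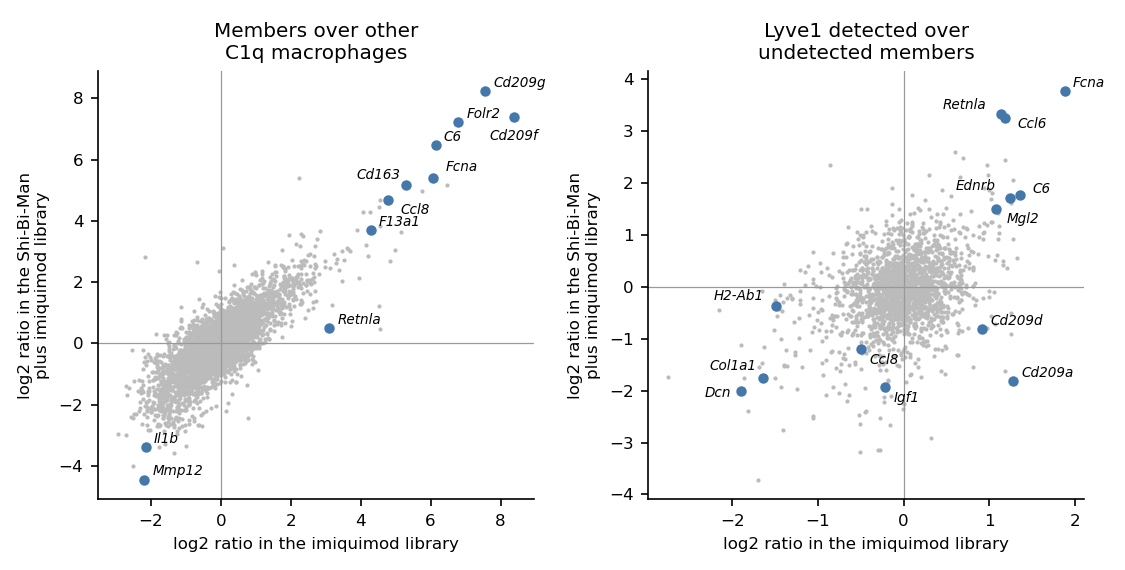
Each point is a gene. Left, log2 ratio of members over other C1q macrophages; right, of members with a Lyve1 count over those without, Lyve1 left out; horizontal axes are the imiquimod library and vertical axes the library with Shi-Bi-Man. On the left Cd163 and Ccl8 lie near 5 in both libraries while Retnla lies at 3.10 and 0.51; on the right Fcna, Retnla and Ccl6 are higher in both, and Igf1 and Cd209a lie low only on the vertical axis, which was not tested.

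A count of Lyve1 was found in 208 of 558 members (37.3%) with imiquimod and in 75 of 352 (21.3%) with Shi-Bi-Man, and at equal depth in 22.2% (18.8 to 25.9) and 15.1% (11.5 to 19.2). The summed level was 611 and 447 CPM (-0.45, -0.67 to -0.24), and the log2 ratio was -0.03 in the low-collagen members and -0.02 in members with 4 or 5 markers. Members with a Lyve1 count had a median of 5 markers in both libraries and those without had 3, at close depths (medians of 1503.5 and 1445.5 counts, and of 1370 and 1343 counts). Of 1959 genes with enough counts, 57 including Lyve1 (2.91%) were at least 1.5-fold higher in the members with a Lyve1 count in both libraries, and 71 (3.62%) at least 1.5-fold lower. Fcna was higher by 1.88 and 3.78 on the log2 scale, Ccl6, a CC chemokine, by 1.19 and 3.25, Retnla by 1.14 and 3.34, Ednrb by 1.25 and 1.70, and Fcgrt, the neonatal Fc receptor, by 1.26 and 1.61. Dcn, a fibroblast proteoglycan, was lower at -1.91 and -2.01 and Col1a1 at -1.64 and -1.76, so these fibroblast transcripts were lower in the members with a Lyve1 count. Slamf7 (-2.75 and -1.74) and Plaur, the urokinase receptor (-1.82 and -2.39), were lower as well.

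The comparison of the libraries came out differently for some genes in members with and without a Lyve1 count, and these differences were not tested. Retnla stood at 5605 and 4446 CPM (-0.33) in members with Lyve1 and at 2549 and 439.4 CPM (-2.53) in those without. H2-Ab1 stood at 1227 and 2708 CPM (1.14) with Lyve1 and at 3442 and 3501 CPM (0.02) without. Cd209d stood at 508 and 449.9 CPM (-0.16) with Lyve1 and at 269 and 800.3 CPM (1.57) without, and Igf1 at 543 and 265 CPM (-1.02) and at 631 and 1027 CPM (0.70). Ccl8 and Gbp2 were higher with Shi-Bi-Man in both: Ccl8 by 0.98 and 1.68, and Gbp2 by 2.10 and 1.71. Cxcl13 was lower in both, at 389 and 1 counts with Lyve1 and 352 and 30 counts without. By the number of markers, Ccl8 was higher by 1.53 in members with 2 or 3 and by 1.99 in those with 4 or 5, and Retnla stood at -1.77 and -1.21.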

How the data were processed

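The deposited files hold raw counts per gene and cell barcode, whole numbers per the file headers and values, 1 matrix per library over 55471 gene entries (55353 symbols). The submitters' processing notes name the builds mm10 and GRCm38. The aligner, the collapsing of molecular identifiers and any doublet removal are not given in the sources used here, and no doublet caller was run. Counts of members were summed per library and scaled to CPM. Log2 ratios of summed counts have exact conditional binomial 95% intervals, computed with scipy 1.17.1 on Python 3.11.15. Log2 ratios of shares have 95% intervals from a normal approximation on the log scale. Scaling alternatives used edgeR 4.0.16 (TMM) and DESeq2 1.42.0 (size factors), with no test from either. The calculation was tested on simulated data. Coordinates are GENCODE vM21, which holds 99.4% of the gene identifiers. The members and gene lists were chosen with earlier results of these data known. Named genes were the rule's genes and a set of macrophage genes, the 10 highest and 10 lowest ratios (at least 50 CPM and 50 counts), the 4 largest of each list, and the 15 at each end of the 2 contrasts within macrophages; the text gives some of these, and further genes were chosen after their values were seen. The fibroblast gate was at least 10 counts of Col1a1, Col1a2, Col3a1 and Dcn, 0 of Ptprc and under 5 of Krt5 and Krt14. Alternatives varied the barcode filters, the rule, depth, scaling, weighting of cells, free RNA, count filter and added constant. Some genes are not reported here.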

Additional observations from a re-analysis of the deposited data

Results flagged for a closer look

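For 3 genes the log2 ratio between the libraries had opposite signs in the resident dermal macrophages and in the other C1q macrophages, both past 1.5-fold; with 1 library per group the difference was not tested. Retnla was -1.55 in the members and 1.04 in the other C1q macrophages, where it stood at 427 and 877 CPM. The share of the other C1q macrophages with a Retnla count was 11.3% and 10.9%, and at equal depth 4.93% and 8.64%. The members' Retnla ratio was -0.74 when 1 marker sufficed for membership, a setting that takes in part of the other C1q macrophages. Oasl1, a 2'-5'-oligoadenylate synthetase-like gene, was -1.47 in the members and 1.84 in the other C1q macrophages. Plac8 was 1.64 in the members and -1.41 in the other C1q macrophages.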

How the results depend on the processing

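Among 18 alternatives, the log2 ratio of the members' share of retained barcodes was -0.38 with at least 3 markers, -0.40 without members with 5 or more counts of other-type genes, and -1.12 in the low-collagen members, a setting chosen after seeing the data. The ratio of the share of C1q macrophages was -0.14 with 3 markers and -0.54 in the low-collagen members. The filters on other-type and collagen genes removed members only, and the retained barcodes and other C1q macrophages were left unfiltered. They left 475 and 259 members, and 424 and 141 low-collagen members, of the main 558 and 352. These share ratios therefore also carry the unequal removal, and a loss of macrophages cannot be read from them. The 1161 higher and 980 lower genes became 442 and 435 when barcodes were thinned to 500 counts before the rule, 447 and 420 with at least 50 counts, and 4867 and 4547 with no filter, as fewer or more genes were tested. Thinning reversed Gbp3 to -0.073; the cause was not tested. Ccl8 kept 1.59 to 1.82, Gbp2 1.67 to 1.90, Cxcl13 -4.26 to -2.68, Fcna -1.99 to -1.63 and Retnla -1.74 to -0.74. The interferon median ran from 0.20 to 0.70. TMM and DESeq2 moved the ratios by 0.016 and 0.017. No paired analysis was possible because each group has 1 library.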
